A study of Mus musculus with 8 samples.

Results

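The collagen chain genes of cultured mouse brain pericytes were examined as 1 gene family. They were taken as the protein-coding genes whose symbol reads Col, a type number, the letter a and a chain number, and 44 of the 54532 genes in the files met this rule. RNA was sequenced from 8 primary cultures grown from wild-type mouse brain, of which 4 received TGF-β1 at 5 μg/mL for 48 h and 4 received vehicle. The question put by the design was how TGF-β signaling changes gene expression in brain pericytes. The labels give no strain, sex or age. The study's methods name male adult mice, on backgrounds enriched in C57/BL6, for its prostate models, without tying them to the brains used here. According to the study's methods, the isolated cells were plated on collagen I-coated plastic and expanded over several passages in serum, so both groups share that culture history, and the treatment started after a day in culture. Vehicle cultures carry the replicate numbers 1 to 4 and TGF-β1 cultures the numbers 5 to 8, and values below are always given in that order.

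A collagen molecule is a trimer of chains wound into a helix, built from identical chains or from the products of different genes, and the chain genes fall into classes by the structure the trimers form. Fibrillar collagens (types I, II, III, V, XI, XXIV and XXVII) make the cross-striated fibrils of the extracellular matrix, with types V and XI as minor chains that set fibril assembly and diameter, and FACIT collagens sit on the surface of those fibrils. Type IV chains build the network of the basement membrane that pericytes share with endothelial cells, type VI chains build beaded filaments at the border between cell and matrix, type VII builds the anchoring fibrils of epithelia, and the transmembrane collagens span the plasma membrane. TGF-β is a classical inducer of collagen genes in mesenchymal cells.

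The 8 libraries held 45255235 to 47651397 counts each, so that 3 counts, taken here as the lower limit of detection, correspond to 0.0631 to 0.0658 CPM (counts per 1000000 counts of the scaled library). Of 14 pericyte markers, *Pdgfrb*, *Cspg4*, *Cd248* and *Notch3* were well detected, whereas *Kcnj8*, *Abcc9* and *Vtn* had at most 9 counts in any culture. *Des* and *Higd1b* were also scarce, with 25 to 36 and 5 to 25 counts per culture. The mean of *Des* was 0.685 CPM with vehicle and 0.623 CPM with TGF-β1, a difference that was not called (edgeR, adjusted p = 0.715). *Rgs5*, at 8.62 and 2.13 CPM, *Anpep* and *Tbx18* were the 3 pericyte markers that fell. The 5 that rose were *Cspg4* (82.9 and 169 CPM), *Pdgfrb* (202 and 291 CPM), *Mcam*, *Cd248* and *Foxf2*. The summed pericyte markers were at 660.1 to 678 CPM with vehicle and 828 to 859.6 CPM with TGF-β1, with 5 markers higher and 3 lower of 11 tested. The summed fibroblast and leptomeningeal markers were at 189 to 198 CPM and 223 to 237 CPM, with 1 higher and 2 lower of 4 tested, and of these *Pdgfra* (62.5 and 63.0 CPM), *Dcn* (52.1 and 46.7 CPM), *Crabp2* (48.7 and 117 CPM, the one that rose) and *Ptgds* (31.2 and 3.30 CPM) were well detected while *Lum*, *Slc6a13*, *Slc22a6* and *Aldh1a2* had at most 10 counts. The summed endothelial markers were at 472 to 486 CPM and 475 to 501 CPM, of which *Cdh5* made up 375 CPM of the vehicle mean while *Pecam1* had a vehicle mean of 1.11 CPM, and 2 were higher and 1 lower of 6 tested. The vascular smooth muscle sums were at 694 to 765 CPM and 704 to 742 CPM (1 higher of 4 tested). Of these, *Acta2* made up 731 CPM of the vehicle mean, while *Myh11*, *Tagln* and *Cnn1* had at most 129 counts in any culture. The astrocyte sums were at 243 to 256 CPM and 223 to 235 CPM (2 higher and 1 lower of 5 tested). *Gja1* made up 195 CPM of this vehicle mean and 190 CPM of the TGF-β1 mean. *Slc1a2*, the 1 that fell, was at 38.5 and 16.3 CPM, and *Slc1a3* and *Aldh1l1* were the 2 that rose. *Gfap* had at most 54 counts in any culture and *Aqp4* at most 6. The microglia and macrophage sums, almost all *Tmem119*, were at 104 to 108 CPM and 102 to 105 CPM (1 higher of 6 tested). The oligodendrocyte sums were at 3.86 to 5.07 CPM and 5.19 to 5.74 CPM (1 higher of 3 tested). The part of these markers in the collagen values was not tested. In bulk RNA, fewer cells of a type and less RNA per cell cannot be told apart.

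TGF-β1 moved the collagen chain genes in both directions. The genes of the fibril-forming chains and of type VII mostly rose, led by *Col7a1*, *Col5a3*, *Col11a1* and *Col5a2*, and the genes of the type VI chains *Col6a1* and *Col6a2*, of the type IX chains *Col9a2* and *Col9a3* and of *Col18a1* fell. Of the 44 members, 40 had enough counts to be tested, and 27 of these (67.5%) passed an adjusted p of 0.05, where 41.3% of all 22544 genes tested did. Of the 27, 17 were higher and 10 were lower with TGF-β1, where 20.9% of all genes tested were higher and 20.3% lower. A change of at least 1 on the log2 scale, that is of at least 2-fold, was found for 5 members that rose and 3 that fell, and 2.59% and 2.83% of all genes tested passed the same limits. The 4 vehicle and the 4 TGF-β1 cultures did not overlap for 24 of the 40 members, and for 37.9% of all genes tested. The median log2 fold change was 0.07 over the 40 members and -0.01 over all genes. All adjusted p-values of single genes are from edgeR's quasi-likelihood test with Benjamini-Hochberg adjustment over the 22544 genes, fold changes are on the log2 scale as TGF-β1 over vehicle with their standard error (SE), and means are given ± SD with n = 4 cultures.

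**Figure D1:**
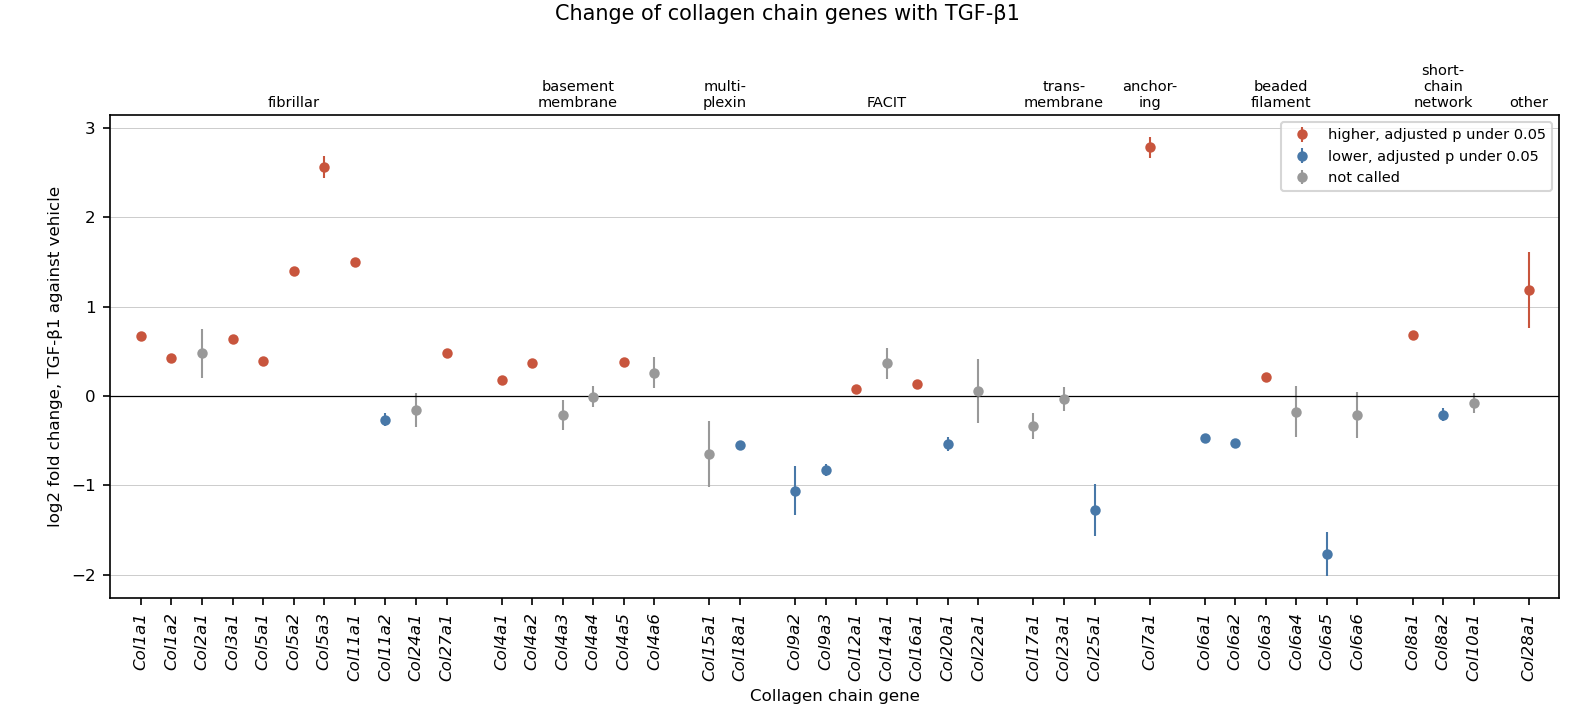
Log2 fold change of the 40 tested collagen chain genes, TGF-β1 against vehicle (4 cultures each), grouped by class on the x axis. Points are edgeR estimates, bars are ± 1 SE, and colors mark genes that were higher, lower or not called at an adjusted p of 0.05. *Col7a1* at 2.78 and *Col5a3* at 2.57 stand highest, and *Col6a5* at -1.77 and *Col25a1* at -1.27 lowest.

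Among the 11 fibrillar chain genes, 8 rose, 1 fell and 2 were not called, with a median log2 fold change of 0.48 (background 20.9% higher and 20.3% lower). The 3 genes of the bulk fibrils rose together. *Col1a1*, the major chain of type I (mm10, chr11:94936224-94953042), was at 1535, 1597, 1597 and 1621 CPM in the vehicle cultures and at 2538, 2520, 2580 and 2461 CPM in the TGF-β1 cultures. Its log2 fold change was 0.67 (SE 0.02, adjusted p = 3.35e-28). *Col1a2*, which supplies the second kind of type I chain (chr6:4504814-4541544), was at 2065, 2110, 2167 and 2143 CPM and then 2875, 2900, 2874 and 2760 CPM, a log2 fold change of 0.43 (SE 0.02, adjusted p = 2.05e-21). *Col3a1*, whose homotrimer forms fibrils together with type I in vessel walls (chr1:45311538-45349706), was at 768, 793, 833 and 811 CPM and then 1201, 1295, 1267 and 1232 CPM, a log2 fold change of 0.64 (SE 0.02, adjusted p = 1.19e-23). For each of the 3 genes the lowest TGF-β1 culture lay above the highest vehicle culture, and the SD within either group was small beside the gap between the groups.

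The minor fibrillar chains of types V and XI differed widely among themselves, and *Col5a3*, *Col11a1* and *Col5a2* had the 3 largest fold changes of the fibrillar class. *Col5a1*, the chain present in most type V trimers (chr2:27886425-28039514), was at 464, 483, 489 and 495 CPM with vehicle and 634, 629.6, 652 and 625 CPM with TGF-β1. The group means were 483 ± 13.4 and 635 ± 12.1 CPM, a log2 fold change of 0.40 (SE 0.02, adjusted p = 5.49e-19). *Col5a2*, its usual partner (chr1:45374321-45503282), was at 365, 367, 387 and 390.2 CPM and then 946, 1026, 999 and 1011 CPM. This was a log2 fold change of 1.40 (SE 0.03, adjusted p = 9.55e-34), against 0.40 for its partner. *Col5a3*, a chain with a restricted tissue distribution that can take a place in type V trimers (chr9:20770050-20815067), was low in the vehicle cultures at 8.81, 9.74, 10.1 and 9.71 CPM and reached 47.6, 65.2, 53.0 and 61.7 CPM with TGF-β1. Its group means of 9.60 ± 0.563 and 56.9 ± 8.03 CPM correspond to a log2 fold change of 2.57 (SE 0.12, adjusted p = 1.70e-06). *Col11a1*, a type XI chain best known from cartilage that can also join type V chains (chr3:114030540-114220718), was at 82.2, 83.1, 90.3 and 85.0 CPM and then 224, 249, 232 and 260.1 CPM, a log2 fold change of 1.502 (SE 0.05, adjusted p = 2.84e-11). The groups did not overlap for any of these 4 genes. *Col11a2*, the other type XI chain tested, fell by 0.26 on the log2 scale from 9.85 ± 0.655 to 8.20 ± 0.453 CPM (adjusted p = 0.00324).

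Of the remaining fibrillar genes, *Col27a1*, of the type XXVII homotrimer of cartilage and developing tissues, rose from 34.996 ± 1.67 to 48.7 ± 0.625 CPM, a log2 fold change of 0.48 (adjusted p = 1.97e-14). *Col2a1*, the fibrillar chain of cartilage, had 20 to 53 counts per culture and a log2 fold change of 0.48 (SE 0.27, adjusted p = 0.171). *Col24a1*, the type XXIV chain, had 44 to 61 counts and a log2 fold change of -0.16 (SE 0.19, adjusted p = 0.564). The vehicle and TGF-β1 cultures overlapped for both.

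**Figure D2:**
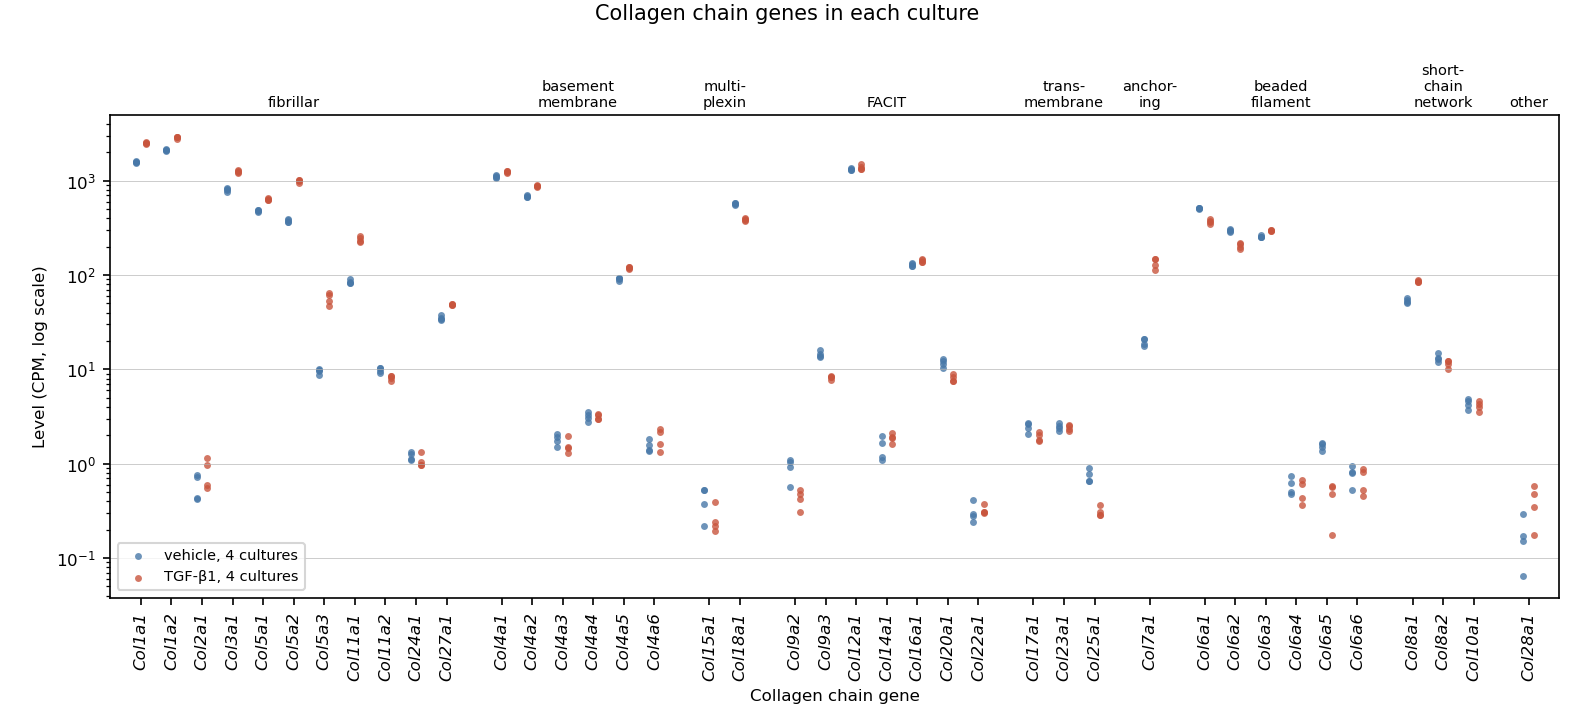
Level of the 40 tested collagen chain genes in each culture, in CPM on a log axis, grouped by class on the x axis. Each point is 1 culture (4 vehicle, 4 TGF-β1). The groups are apart for *Col7a1* (17.5 to 20.9 against 114 to 148 CPM) and for *Col5a3* (8.81 to 10.1 against 47.6 to 65.2 CPM), and they overlap for most genes below 3 CPM.

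*Col7a1*, the chain of the homotrimer that forms anchoring fibrils beneath epithelia (mm10, chr9:108953586-108984875), was the member with the largest fold change. It was at 18.7, 17.5, 20.9 and 20.8 CPM in the vehicle cultures and at 114, 146, 128 and 148 CPM in the TGF-β1 cultures. The means of 19.5 ± 1.66 and 134 ± 16.2 CPM gave a log2 fold change of 2.78 (SE 0.12, adjusted p = 1.43e-06), or 6.87-fold. The counts behind these values were 799 to 994 per vehicle culture and 5228 to 6958 per TGF-β1 culture. TGF-β1 cultures 6 and 8 lay above cultures 5 and 7, as they did for *Col5a3* and *Col11a1*.

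The start regions of the 3 genes with the largest rises are shown because SMAD proteins, the transcription factors of the TGF-β pathway, bind short CAGAC elements. Each is the RefSeq window on GRCm38.p6 (the assembly of mm10) from 250 bases before to 50 bases after the start of the gene, written 5′ to 3′ on the strand of the gene, with CAGAC or its complement GTCTG in capitals. They are chr9:108953336-108953635 on the plus strand for *Col7a1*, chr9:20815018-20815317 on the minus strand for *Col5a3* and chr3:114030290-114030589 on the plus strand for *Col11a1*.
Col7a1: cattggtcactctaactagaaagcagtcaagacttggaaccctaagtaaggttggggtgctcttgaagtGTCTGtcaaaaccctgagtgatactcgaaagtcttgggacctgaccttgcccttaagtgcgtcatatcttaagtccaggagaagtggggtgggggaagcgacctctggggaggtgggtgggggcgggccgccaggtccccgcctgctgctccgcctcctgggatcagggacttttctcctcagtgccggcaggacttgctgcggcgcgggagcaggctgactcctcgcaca
Col5a3: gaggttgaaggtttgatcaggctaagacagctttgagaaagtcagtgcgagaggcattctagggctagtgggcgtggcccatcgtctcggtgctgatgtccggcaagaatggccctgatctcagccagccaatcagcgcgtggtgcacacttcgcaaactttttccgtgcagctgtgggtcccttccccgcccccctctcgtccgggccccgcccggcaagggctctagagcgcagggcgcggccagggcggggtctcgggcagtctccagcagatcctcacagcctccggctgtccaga
Col11a1: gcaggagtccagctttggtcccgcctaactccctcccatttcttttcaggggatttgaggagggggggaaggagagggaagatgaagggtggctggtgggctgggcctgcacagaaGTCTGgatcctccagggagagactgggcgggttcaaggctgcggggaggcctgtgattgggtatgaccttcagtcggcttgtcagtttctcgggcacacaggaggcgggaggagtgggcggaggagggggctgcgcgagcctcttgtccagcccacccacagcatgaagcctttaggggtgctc
The *Col7a1* window held 1 match, starting 181 bases before the gene start, the *Col11a1* window held 1, starting 134 bases before it, and the *Col5a3* window held none. Of the 44 members, 35 had a window in the RefSeq table, with 38 windows in all. CAGAC, searched on both strands, was in 20 of the 38 (52.6%) and in 49.6% of all 32851 windows of this length. It was in 10 of the 14 windows of members that rose and in 5 of the 11 windows of members that fell. GGGCGG, the GC box bound by Sp1, was in 23 of the 38 collagen windows (60.5%) and in 35.7% of all windows, with 11 of 14 among members that rose and 8 of 11 among members that fell. CCAAT was in 13 of the 38 (34.2%) and in 37.4% of all windows. Members that rose held CCAAT in 8 of 14 windows and members that fell in 2 of 11. TGANTCA, the AP-1 element, was in 1 of the 38 (2.63%) and in 7.81% of all windows. Members that rose held TGANTCA in 0 of 14 windows and members that fell in 1 of 11. A match describes letters in the window and is no measurement of binding. No window was given for *Col12a1*, *Col14a1*, *Col1a1*, *Col22a1*, *Col26a1*, *Col2a1*, *Col4a3*, *Col5a2* and *Col9a3*.

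The 6 type IV genes of the basement membrane split by abundance: the 3 abundant ones rose modestly and none of the 3 scarce ones was called (background 41.3% called). *Col4a1*, one of the chains of the ubiquitous type IV trimer (chr8:11198423-11312826), was at 1069, 1084, 1147 and 1116 CPM in the vehicle cultures and 1233, 1274, 1265 and 1220 CPM in the treated cultures, with a log2 fold change of 0.18 (SE 0.02, adjusted p = 8.02e-09). *Col4a2*, the partner chain of that trimer (chr8:11312805-11449287), was at 668, 667, 708 and 694 CPM and then 871, 912, 882 and 860.1 CPM, a log2 fold change of 0.37 (SE 0.02, adjusted p = 9.64e-18). *Col4a5*, of the trimers of kidney and smooth muscle basement membranes, was at 93.6, 91.8, 93.7 and 87.5 CPM and then 121, 118, 122 and 116 CPM, a log2 fold change of 0.38 (SE 0.03, adjusted p = 2.21e-15). The groups did not overlap for these 3 genes, although the fold changes were small. *Col4a3* was at 1.76, 2.08, 1.94 and 1.49 CPM and then 1.51, 1.46, 1.31 and 1.98 CPM (-0.22 on the log2 scale, adjusted p = 0.328). *Col4a4*, which partners *Col4a3* and *Col4a5* in the kidney, was at 3.54, 2.76, 3.07 and 3.29 CPM and then 2.99, 2.96, 3.34 and 3.32 CPM (-0.01, adjusted p = 0.974). *Col4a6*, the partner of *Col4a5* in smooth muscle, was at 1.41, 1.84, 1.60 and 1.36 CPM and then 1.33, 2.35, 1.61 and 2.15 CPM (0.26, adjusted p = 0.247). These 3 genes had overlapping groups, with 60 to 163 counts per culture, and antisense transcripts cover 5.6% of the exonic bases of *Col4a3*.

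*Col4a1* and *Col4a2* lie head to head on chromosome 8 and are read in opposite directions from start sites 21 bases apart, with an overlap of 22 bases. Their start windows are shown because they overlap, so that the same DNA lies at the start of both genes. The RefSeq windows are chr8:11312777-11313076 on the minus strand for *Col4a1* and chr8:11312555-11312854 on the plus strand for *Col4a2*, and capitals mark the 78 bases that lie in both.
Col4a1: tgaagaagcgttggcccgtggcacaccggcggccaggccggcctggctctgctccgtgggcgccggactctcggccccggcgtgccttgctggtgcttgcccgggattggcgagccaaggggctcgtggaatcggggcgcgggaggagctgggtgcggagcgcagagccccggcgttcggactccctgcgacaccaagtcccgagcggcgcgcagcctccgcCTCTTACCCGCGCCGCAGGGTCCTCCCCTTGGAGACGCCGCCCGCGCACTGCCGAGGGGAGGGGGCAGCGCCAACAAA
Col4a2: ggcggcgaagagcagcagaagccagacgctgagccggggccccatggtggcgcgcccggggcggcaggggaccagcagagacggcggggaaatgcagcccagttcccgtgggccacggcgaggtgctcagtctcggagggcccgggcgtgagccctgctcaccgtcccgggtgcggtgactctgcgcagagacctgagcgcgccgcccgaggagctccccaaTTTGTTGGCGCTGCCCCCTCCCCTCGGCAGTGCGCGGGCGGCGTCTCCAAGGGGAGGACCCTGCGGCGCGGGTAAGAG
From this shared start the log2 fold changes were 0.18 and 0.37, a difference taken up with the chain ratios. The other type IV genes are arranged in the same way. *Col4a4* and *Col4a3* lie head to head on chromosome 1 with 71 bases between them, with log2 fold changes of -0.01 and -0.22, and *Col4a6* and *Col4a5* lie head to head on chromosome X with 1308 bases between them, with 0.26 and 0.38. *Col3a1* and *Col5a2* lie tail to tail on chromosome 1 with 24614 bases between them and log2 fold changes of 0.64 and 1.40.

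Among the 6 type VI genes of the beaded filaments, 3 fell, 1 rose and 2 were not called, with a median log2 fold change of -0.34 (background 20.3% lower and 20.9% higher). The filament is assembled from trimers of the products of *Col6a1*, *Col6a2* and a longer chain, encoded by *Col6a3* or by one of its relatives *Col6a4*, *Col6a5* and *Col6a6*. *Col6a1* (chr10:76708792-76726168) was at 518, 518, 507 and 512 CPM in the vehicle cultures and 393, 366, 378 and 351 CPM in the TGF-β1 cultures, a log2 fold change of -0.47 (SE 0.03, adjusted p = 4.26e-19). *Col6a2* (chr10:76595762-76623630) was at 305, 301, 284 and 294 CPM and then 220.4, 201, 215 and 188 CPM, a log2 fold change of -0.52 (SE 0.05, adjusted p = 1.84e-06). *Col6a3* (chr1:90765923-90843971) went the other way, from 256, 269, 253 and 253 CPM to 291, 303, 304 and 296 CPM, a log2 fold change of 0.21 (SE 0.02, adjusted p = 6.60e-10). The groups did not overlap for any of these 3 chains, so the long chain rose while both of its partners fell.

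*Col6a5* had the largest fall of all members but is a scarce transcript in these cultures. It was at 1.37, 1.67, 1.49 and 1.62 CPM with vehicle, which is 63 to 76 counts, and at 0.480, 0.174, 0.567 and 0.575 CPM with TGF-β1, which is 8 to 27 counts. Its log2 fold change was -1.77 (SE 0.24, adjusted p = 4.76e-08), and TGF-β1 culture 6 was the lowest. *Col6a4* was at 0.738, 0.504, 0.631 and 0.477 CPM and then 0.676, 0.610, 0.436 and 0.362 CPM (-0.17, adjusted p = 0.677), and *Col6a6* at 0.825, 0.943, 0.526 and 0.802 CPM and then 0.873, 0.523, 0.458 and 0.809 CPM (-0.21, adjusted p = 0.558), with overlapping groups for both. These 3 relatives stand in a row on chromosome 9 with 27917 and 28810 bases between neighbors, and *Col6a2* and *Col6a1* stand in a row on chromosome 10 with 85161 bases between them. Of the 50-base stretches of *Col6a5* and *Col6a6*, 3.42% and 3.54% also occur in other genes, so reads of near-identical sequence touch a small part of both.

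Of the FACIT genes, 7 of 9 were tested, 2 rose and 3 fell (background 20.9% higher and 20.3% lower). *Col9a2* and *Col9a3* encode type IX chains, which decorate cartilage and vitreous fibrils. *Col9a2* was at 0.564, 1.097, 0.926 and 1.04 CPM with vehicle and 0.305, 0.479, 0.524 and 0.426 CPM with TGF-β1, that is 14 to 50 counts, with a log2 fold change of -1.06 (SE 0.27, adjusted p = 0.00125). *Col9a3* fell from 14.6 ± 1.03 to 8.22 ± 0.393 CPM, a log2 fold change of -0.83 (SE 0.07, adjusted p = 6.85e-14), and 6.1% of its exonic bases are also covered by the antisense gene *Tcfl5*, whose reads cannot be told apart if counting ignored strand. *Col20a1*, the type XX chain, fell from 11.8 ± 1.17 to 8.10 ± 0.638 CPM (-0.54, adjusted p = 9.91e-08). The groups were apart for these 3 genes. *Col16a1*, the type XVI chain, rose from 129 ± 4.57 to 142 ± 4.45 CPM (0.14, adjusted p = 7.06e-05). *Col12a1*, of the type XII homotrimer that binds type I fibrils, was by far the most abundant FACIT gene at 1320 ± 24.4 CPM with vehicle and 1396 ± 80.1 CPM with TGF-β1. Its log2 fold change of 0.08 (SE 0.03) had an adjusted p of 0.0400, the groups overlapped, and the call was lost with library totals (adjusted p = 0.132) or upper-quartile factors (adjusted p = 0.177) and without any 1 of TGF-β1 cultures 5 and 7 and vehicle cultures 1, 3 and 4 (adjusted p = 0.0663 to 0.193). *Col14a1*, of type XIV, was not called at 0.37 (adjusted p = 0.0903), but was called without vehicle culture 4 (0.53, adjusted p = 0.0188). *Col22a1*, of type XXII, had 11 to 19 counts and a log2 fold change of 0.05 (SE 0.36, adjusted p = 0.924).

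The multiplexins are basement membrane proteoglycans whose C-terminal fragments include endostatin. *Col18a1*, the type XVIII chain, was one of the abundant collagen genes and fell from 571 ± 9.25 to 389 ± 9.33 CPM, a log2 fold change of -0.55 (SE 0.02, adjusted p = 3.15e-24). It was at 558, 579, 569.6 and 576 CPM and then 389, 401, 388 and 378 CPM, with no overlap, so it moved against the 3 abundant type IV genes of the same membrane. *Col15a1*, the type XV chain, had 9 to 25 counts and a log2 fold change of -0.65 (SE 0.37, adjusted p = 0.170).

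The transmembrane, short-chain and remaining genes were mostly scarce. *Col25a1*, a transmembrane chain known from amyloid plaques, was at 0.911, 0.658, 0.652 and 0.780 CPM with vehicle and 0.284, 0.305, 0.284 and 0.362 CPM with TGF-β1, or 30 to 42 and 13 to 17 counts. Its log2 fold change was -1.27 (SE 0.29, adjusted p = 0.000366), with no overlap. *Col17a1*, the hemidesmosomal chain, was not called at -0.34 (adjusted p = 0.0560), but was called without TGF-β1 culture 8 (adjusted p = 0.0424) or without vehicle culture 3 (adjusted p = 0.0331), and *Col23a1*, another transmembrane chain, was at -0.04 (adjusted p = 0.863). *Col8a1*, of the short-chain type VIII network of vessels and Descemet's membrane, rose from 53.5 ± 2.73 to 85.7 ± 1.69 CPM (0.68, SE 0.03, adjusted p = 1.37e-21). Its partner *Col8a2* fell from 13.3 ± 1.19 to 11.5 ± 0.944 CPM (-0.21, adjusted p = 0.0134) with overlapping groups, and this call was lost without TGF-β1 culture 8 (adjusted p = 0.107) or vehicle culture 4 (adjusted p = 0.0994). *Col10a1*, the chain of hypertrophic cartilage, was at -0.08 (adjusted p = 0.612). *Col28a1*, a type XXVIII chain known from peripheral nerve, was at 0.0651, 0.154, 0.295 and 0.173 CPM and then 0.349, 0.479, 0.175 and 0.575 CPM, which is 3 to 14 and 8 to 27 counts. Its log2 fold change of 1.18 (SE 0.42, adjusted p = 0.0219) came with overlapping groups and was not called by DESeq2 (adjusted p = 0.0644) or without any 1 of TGF-β1 cultures 6 and 8 and vehicle cultures 1 and 2 (adjusted p = 0.0551 to 0.118). The 4 members that were not tested were *Col9a1* with 0 to 2 counts per culture, *Col13a1* with 2 to 20, *Col19a1* with 0 to 10 and *Col26a1* with 0 to 12. These counts were too low for a test.

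The chains of a trimer are consumed in fixed proportions, so transcripts of chains were also compared with each other within each culture. Each ratio was the counts per kilobase of exon of one chain divided by those of the other. Not all pairs are partners in 1 trimer. *Col3a1* over *Col1a1*, *Col5a1* over *Col1a1* and *Col18a1* over *Col15a1* compare different collagen types. *Col4a5* and *Col4a1* belong to different type IV trimers, and *Col6a5* and *Col6a6* are alternatives to *Col6a3*. Of 18 ratios tested, 7 were higher and 4 lower with TGF-β1 and 7 were not called. The test was an exact two-sided permutation test of the log2 ratio over the 70 assignments of the cultures, with Benjamini-Hochberg adjustment over the 18 ratios. Each of the 11 called ratios had groups that did not overlap, the smallest p this design allows (0.0286) and an adjusted p of 0.0468. Had 1 fewer ratio reached that p, the adjusted value would have been 0.0514 and none would have been called. Several ratios share a chain, as those among *Col5a1*, *Col5a2* and *Col5a3* do, so the called ratios are not separate results.

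The largest shift in balance between partners was in type V. *Col5a1* over *Col5a2* was 1.44, 1.49, 1.43 and 1.43 in the vehicle cultures and 0.757, 0.693, 0.738 and 0.698 in the TGF-β1 cultures. The means were 1.45 ± 0.0286 and 0.722 ± 0.0310, a log2 difference of -1.004, so that the order of the partners per kilobase turned over. With the length of the longest transcript in place of all exons, the means were 1.009 ± 0.0200 and 0.503 ± 0.0216, so that the vehicle cultures had nearly equal levels. *Col5a3* over *Col5a1* was 0.0248 ± 0.000948 with vehicle and 0.112 ± 0.0170 with TGF-β1 (log2 difference 2.16), *Col5a3* over *Col5a2* was 0.0358 ± 0.00161 and 0.0803 ± 0.00888 (1.16), and *Col11a1* over *Col5a1* was 0.117 ± 0.00413 and 0.253 ± 0.0207 (1.105). The scarce chains thus gained on the abundant ones and stayed below them.

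In type I, *Col1a1* over *Col1a2* was 1.41, 1.43, 1.40 and 1.43 with vehicle and 1.67, 1.65, 1.70 and 1.69 with TGF-β1, with means of 1.42 ± 0.0185 and 1.68 ± 0.0236 (log2 difference 0.24). The type I trimer holds more of the *Col1a1* chain than of the *Col1a2* chain. With longest-transcript lengths the means were 0.675 ± 0.00883 and 0.798 ± 0.0113, since the annotated exons of *Col1a2* span 12426 bases and its longest transcript 5348, so only the rise of the ratio, not its position around 1, was the same for both lengths. *Col3a1* over *Col1a1* had means of 0.337 ± 0.00753 and 0.331 ± 0.0115 with overlapping groups (exact permutation p = 0.371, adjusted p = 0.446), and *Col5a1* over *Col1a1* fell from 0.235 ± 0.00146 to 0.194 ± 0.00158 (log2 difference -0.27).

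In type IV, *Col4a1* over *Col4a2* was 1.42, 1.44, 1.44 and 1.43 with vehicle and 1.26, 1.24, 1.27 and 1.26 with TGF-β1, a log2 difference of -0.19 with an SD of the ratio of only 0.0101 and 0.0131 within the groups. *Col4a5* over *Col4a1* rose from 0.0923 ± 0.00437 to 0.106 ± 0.00240 (0.20). *Col4a3* over *Col4a4* and *Col4a5* over *Col4a6* were not called, at log2 differences of -0.22 and 0.14. In type VI, *Col6a1* over *Col6a2* was 3.30 ± 0.0718 and 3.43 ± 0.0890 (log2 difference 0.05, exact permutation p = 0.0857, adjusted p = 0.129). With longest-transcript lengths these means were 2.08 ± 0.0453 and 2.16 ± 0.0561, so the size of this ratio depends on the length used. By contrast, *Col6a3* over *Col6a1* was 0.180, 0.190, 0.183 and 0.181 and then 0.271, 0.303, 0.295 and 0.309, a log2 difference of 0.68. *Col6a5* over *Col6a3* fell from 0.00758 ± 0.000592 to 0.00192 ± 0.000807, a log2 difference of -2.13 that rests on as few as 8 counts of *Col6a5*, and *Col6a6* over *Col6a3* was not called at -0.45. *Col8a1* over *Col8a2* rose from 2.32 ± 0.199 to 4.29 ± 0.336 (0.89), and *Col9a3* over *Col9a2* (0.22) and *Col18a1* over *Col15a1* (0.07) were not called.

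**Figure D3:**
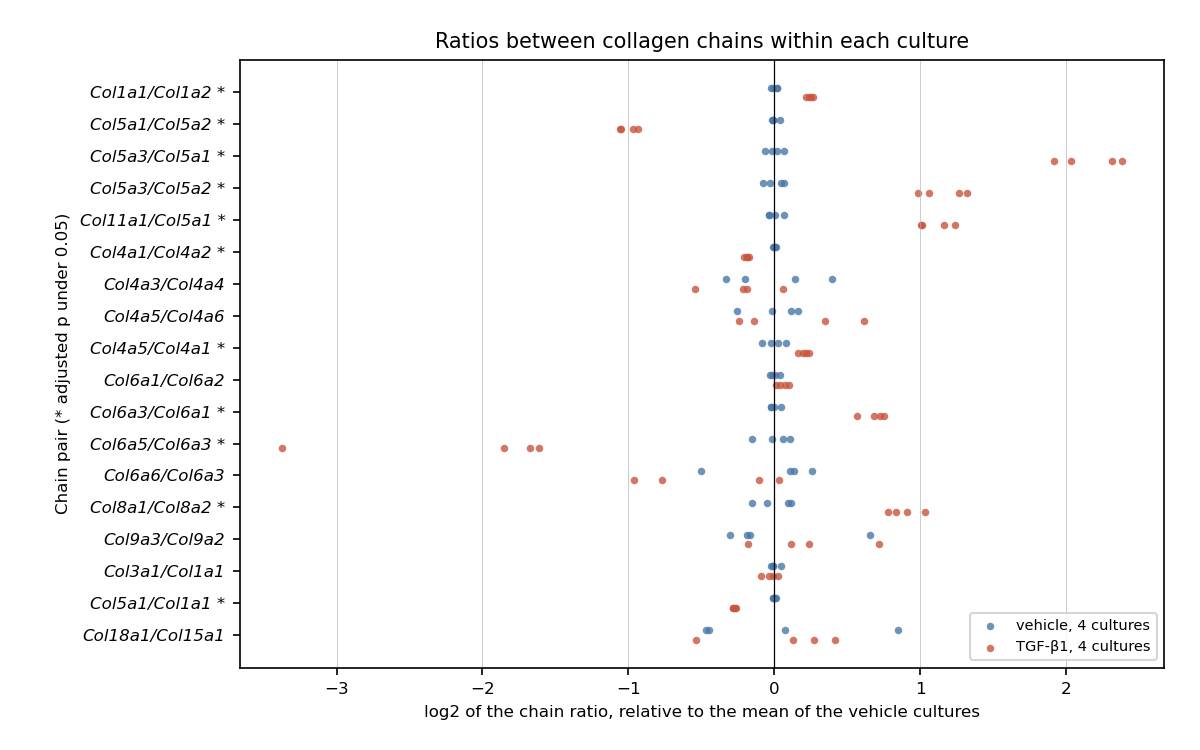
Log2 ratio of counts per kilobase between 2 collagen chains in each culture, relative to the mean of the vehicle cultures on the x axis, for 18 chain pairs on the y axis. Each point is 1 culture (4 vehicle, 4 TGF-β1), and a star marks the 11 pairs with an adjusted p of 0.0468. *Col5a1* over *Col5a2* shifts by -1.004 and *Col5a3* over *Col5a1* by 2.16, while *Col3a1* over *Col1a1* shifts by -0.03 and its groups overlap.

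The order of the collagen genes by level, in CPM per kilobase of exon, was led in both groups by *Col1a1* (242 with vehicle, 385 with TGF-β1) and *Col1a2* (171 and 229.5), followed by *Col4a1* (148 and 167). With longest-transcript lengths *Col1a2* came first and *Col1a1* second in both groups, and *Col3a1* (144 with vehicle, 224 with TGF-β1) took place 3 in the TGF-β1 cultures, ahead of *Col4a1* (189). Of the 40 levels in the vehicle cultures, 22 moved by more than the spread between cultures with that length, so the order depends on the length used. In the vehicle cultures *Col6a1* (117), *Col4a2* (103), *Col12a1* (86.7), *Col3a1* (81.6) and *Col18a1* (81.3) came next, of which neighbors were apart except *Col3a1* and *Col18a1*, whose cultures overlapped. In the TGF-β1 cultures the next were *Col4a2* (133), *Col3a1* (127), *Col5a2* (104), *Col12a1* (91.7), *Col6a1* (84.9), *Col5a1* (74.8) and *Col18a1* (55.4), with overlap between *Col4a2* and *Col3a1*, between *Col5a2* and *Col12a1* and between *Col12a1* and *Col6a1*. *Col5a2* thus went from place 10 to place 6, *Col6a1* from place 4 to place 8, *Col7a1* from place 21 (1.90) to place 16 (13.03) and *Col5a3* from place 23 (1.41) to place 18 (8.35). The genes from *Col23a1* down were at under 1 CPM per kilobase in both groups, and most neighbors among them overlapped.

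Collagen genes took 1.06 ± 0.0124% of all counts in the vehicle cultures and 1.39 ± 0.0149% in the TGF-β1 cultures, as the mean ± SD of 4 cultures each. The cultures were at 1.05, 1.07, 1.07 and 1.07% and at 1.38, 1.39, 1.40 and 1.37%, with no overlap. Summed over the members, the genes with higher means gained 3749 CPM and those with lower means fell by 431 CPM. *Col1a1*, *Col1a2*, *Col3a1* and *Col5a2* made up 2733 CPM of the gain, or 72.9%, while *Col7a1* and *Col5a3*, which led by fold change, gained 115 and 47.3 CPM. No test was made of sums over members.

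Within the collagen counts the fibrillar genes took 51.9 ± 0.435% with vehicle and 61.8 ± 0.440% with TGF-β1. The share of the basement membrane genes went from 17.8 ± 0.305% to 16.2 ± 0.160%, although their abundant members rose. The FACIT genes went from 13.9 ± 0.329% to 11.2 ± 0.538%, the beaded filament genes from 10.1 ± 0.318% to 6.30 ± 0.170% and the multiplexins from 5.38 ± 0.0653% to 2.79 ± 0.0386%. *Col7a1* alone took 0.184 ± 0.0140% and then 0.963 ± 0.123%, the short-chain genes 0.670 ± 0.0201% and 0.727 ± 0.00741%, and the transmembrane genes 0.0555 ± 0.00548% and 0.0344 ± 0.00346%. For each of the 5 larger classes the 4 cultures of one group were apart from those of the other.

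**Figure D4:**
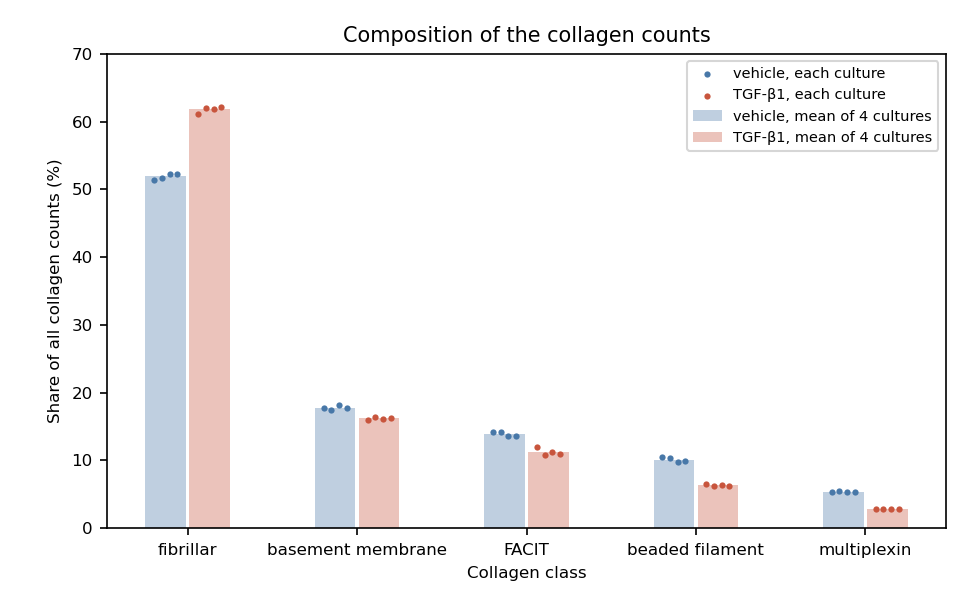
Share of all collagen counts (y axis, %) taken by the 5 larger collagen classes (x axis). Bars are means of 4 vehicle or 4 TGF-β1 cultures and points are the single cultures. The fibrillar share was 51.9% with vehicle and 61.8% with TGF-β1, and the beaded filament share 10.1% and 6.30%.

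The genes listed for collagen biosynthesis, mostly enzymes and chaperones that modify, fold, process and cross-link the chains, rose more often than they fell. Of 36 such genes listed, 35 were found in the files, 34 were tested, 23 were higher and 5 lower, with a median log2 fold change of 0.26 (background 20.9% higher and 20.3% lower). Both this list and the receptor list below were chosen with earlier results of these data known, so their counts are descriptive only. The 3 largest changes were in *P3h2*, *Lox* and *Pcolce2*. *P3h2*, a prolyl 3-hydroxylase that modifies type IV and fibrillar chains, was at 7.18, 6.67, 7.89 and 7.04 CPM with vehicle and 2.84, 3.09, 3.12 and 2.75 CPM after TGF-β1, for a log2 fold change of -1.29 (SE 0.10, adjusted p = 7.44e-15). *Lox*, the lysyl oxidase that starts cross-linking of fibrils, was at 944, 912, 1001 and 982 CPM and then 2189, 2255, 2187 and 2194 CPM (1.201, SE 0.02, adjusted p = 7.89e-35). *Pcolce2*, an enhancer of the protease that trims the C-propeptide, was at 0.434, 0.746, 0.968 and 0.607 CPM and then 1.27, 1.83, 1.16 and 1.83 CPM (1.14, SE 0.22, adjusted p = 4.51e-05). The groups were apart for all 3.

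The collagen receptors mostly went the other way. Of 13 listed, 11 were tested, 2 were higher and 8 lower, with a median log2 fold change of -0.14 (background 20.9% higher and 20.3% lower). Several of the falls were small, with log2 fold changes of -0.09 for *Mrc2*, -0.13 for *Antxr2*, -0.14 for *Antxr1* and -0.15 for *Adgrg1*. Larger falls were found for *Ddr2* (822 and 633 CPM, -0.38), *Itga1* (240 and 186 CPM, -0.36) and *Ddr1* (228 and 189 CPM, -0.27). *Itga2*, the alpha chain of a receptor for type I collagen, was at 9.26, 9.04, 10.48 and 9.68 CPM with vehicle and 25.5, 32.0, 29.6 and 32.0 CPM after TGF-β1, for a log2 fold change of 1.63 (SE 0.07, adjusted p = 5.26e-21). *Itga10*, the alpha chain of another collagen-binding integrin, was at 115, 121, 113 and 115 CPM and then 54.8, 50.002, 50.04 and 47.3 CPM (-1.20, SE 0.03, adjusted p = 5.34e-28). *Itgb1*, the beta chain shared by the collagen-binding integrins, rose from 832 ± 17.5 to 1132 ± 24.4 CPM (0.44, SE 0.02, adjusted p = 1.81e-21). *Itga2* and *Itgb1* were thus the 2 receptor genes that rose, and the groups were apart for *Itga2*, *Itga10* and *Itgb1*.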

How the data were processed

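RNA-seq libraries (stranded total RNA, per the labels) from 4 vehicle and 4 TGF-β1 cultures were analyzed from the deposited raw counts per gene. Per the labels and the study's methods, the authors used STAR 2.7.5c (2-pass) on mm10, samtools 1.15 to drop PCR duplicates and featureCounts 2.0.3. The strand setting, annotation release and treatment of shared reads are not given in the sources used here. Of 54532 gene identifiers, 54495 had a position, symbol and exons in GENCODE M21.

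Genes were tested with edgeR 4.0.16 in R 4.3.3 (filterByExpr, TMM factors of 0.988 to 1.009, robust quasi-likelihood test, Benjamini-Hochberg adjustment over 22544 genes, threshold 0.05), in place of the DESeq2 workflow of the authors, which was run as an alternative (1.42.0). The SE is the log2 fold change divided by the square root of F. CPM use TMM-scaled library sizes, and levels between genes are per kilobase of merged exons. Chain ratios were tested by exact permutation (scipy 1.17.1). The edgeR step was checked on simulated data. Other alternatives were DESeq2 size factors, library totals, upper-quartile factors, at least 1 count in any or 10 in every culture, halved counts, and each culture left out. Counts from 1 to 20 were even in 68.5 to 70.2% of cases, so both mates of a pair may have been counted.

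Each culture was taken as 1 replicate because the labels number them as separate cultures. Counts of 2 cultures of a group differed with a chi-square per degree of freedom of 2.25 to 3.93. If both mates were counted, sampling alone would give a value near 2, so the low end of this range is close to sampling alone. The SEs and p-values measure the spread between these cultures. Whether this covers the spread between independent isolates cannot be told from the labels. The methods describe 4 independent isolates treated with vehicle and TGF-β1, so the 8 cultures may come from 4 shared isolates, but no label ties a vehicle culture to a TGF-β1 culture and the cultures were tested as independent. The members and the biosynthesis, receptor and marker lists were chosen with earlier results of these data known. Values per culture are given for members past the threshold with a log2 change of at least 1, for all tested chains of types I, III, IV, V, VI and VII, and for the 3 largest called changes of the biosynthesis and receptor lists; 1 listed gene, *Ctage5*, was not matched. *Col18a1* per culture was added after its values were seen. Promoter windows are from RefSeq (GRCm38.p6). Protein sequences were not analysed here.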

Additional observations from a re-analysis of the deposited data

Results flagged for a closer look

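Of 116 sets of 4 cultures checked (levels of the tested members and chain ratios in each group), 4 had 1 culture far from the other 3, and chance alone gives about 1 in 20. *Col6a3* was at 268.5 CPM in vehicle culture 2 and at 253.1 to 255.6 CPM in the other vehicle cultures. *Col22a1* was at 0.371 CPM in TGF-β1 culture 7 and at 0.298 to 0.3055 CPM in the other TGF-β1 cultures, a gap of 3 counts. *Col5a1* over *Col5a2* was 1.489 in vehicle culture 2 and 1.427 to 1.436 in the other vehicle cultures, all above the TGF-β1 cultures. *Col9a3* over *Col9a2* was 20.98 in vehicle culture 1 and 10.76 to 11.87 in the other vehicle cultures, with 26 counts of *Col9a2* in that culture.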

How the results depend on the processing

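Of the 27 collagen genes called, 23 kept direction and call under DESeq2, each other scaling, each other filter, halved counts and each culture left out. The exceptions were *Col12a1*, *Col8a2* and *Col28a1*, which lost the call, and *Col6a5*, which was called wherever it was tested but with 8 counts in 1 culture was not tested with at least 10 counts in every culture (25 calls), and the number called was 25 to 27 with a culture left out. The 1 call in the class of other collagens, *Col28a1*, became 0 with DESeq2, with at least 10 counts in every culture (not tested there) and with halved counts, and the number in this class was 0 to 1 with a culture left out. Leaving out a culture also gave 1 to 2 calls among the transmembrane and 1 to 2 among the short-chain genes. With a culture left out, 3 genes that were not called changed sign: *Col4a4* (log2 fold changes from -0.062 to 0.056), *Col22a1* (-0.042 to 0.24) and *Col23a1* (-0.074 to 0.0082). The change in class share, in percentage points, depended on the unit: with counts per kilobase it was 11.1 for fibrillar genes (9.90 with counts), -5.59 for beaded filament genes (-3.79), -3.05 for multiplexins (-2.59) and -1.72 for FACIT genes (-2.76), since long transcripts then weigh less. For the chain ratios a change of gene length cancels from the difference between groups, and with a culture left out no test can pass, because 3 against 4 cultures allow no p below 0.0571. The log2 differences of 2 ratios that were not called changed sign with a culture left out, *Col4a5* over *Col4a6* (lowest -0.011, without TGF-β1 culture 5) and *Col18a1* over *Col15a1* (lowest -0.086, without vehicle culture 1). Another scaling moved the median log2 fold change of all genes by at most 0.01, and the share of higher among called genes was 48.1 to 52.8% (50.7% as reported). No paired analysis was possible because the labels number the vehicle and TGF-β1 cultures 1 to 4 and 5 to 8, with no number in common, although the methods describe isolates that received both treatments. Depth limits the members with under about 100 counts per culture, whose fold changes had an SE of up to 0.42.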

Other observations

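The TGF-β1 cultures differed among themselves in a way that recurred across the members with the largest rises. Cultures 6 and 8 lay above cultures 5 and 7 for all 5 members that rose by at least 1 on the log2 scale (*Col7a1*, *Col5a3*, *Col11a1*, *Col5a2* and *Col28a1*). Of the 3 members that fell by that much, 1 (*Col25a1*) had cultures 6 and 8 above and 2 had a mixed order. Among all 17 members that rose, cultures 6 and 8 were above for 5, below for 4 (*Col1a1*, *Col4a5*, *Col5a1* and *Col12a1*) and mixed for 8, and among the 10 that fell they were above for 2, below for 3 (*Col6a1*, *Col6a2* and *Col20a1*) and mixed for 5. The order was noticed after the values were seen and was not tested, and the labels give no batch or isolate that would separate these cultures.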
